A study of Mus musculus with 9 samples.

Results

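The sites described here are 634 stretches of the mouse genome at which a MyoD1 peak was called in every library made with doxycycline (dox) and in no library made without it. They were chosen by peak calls alone: the peaks of 6 lists were joined wherever they overlapped or touched, which gave 58308 merged regions, and a region was kept when all 3 +dox lists and none of the 3 no dox lists had a peak in it. The sites were 1.09% of all merged regions and 7.16% of the 8852 regions called in all 3 +dox lists. The other regions called in all 3 +dox lists were also called in 1 (1275 regions), 2 (2105 regions) or 3 (4838 regions) no dox lists, and these are the regions that the sites are set beside. In the opposite direction, 5 of the 5546 regions called in all 3 no dox lists, or 0.0902%, had no peak in any +dox list. These counts follow from the rule itself and carry no test.

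All 6 libraries came from C2C12 cells, a mouse skeletal myoblast line, in 1 clonal derivative whose endogenous MyoD1 carries a 3xFlag-Halo tag and which also holds 3xFlag-Halo-MyoD1 under the dox-inducible TRE3GS promoter. Every culture was moved to differentiation medium at the start, 3 without dox and 3 with dox, and harvested 6 h later for CUT and RUN. In this assay an antibody, here against Flag, tethers a nuclease to the tagged protein in permeabilised cells, and the DNA cut free is sequenced. Because both MyoD1 sources carry the same tag, the libraries do not separate endogenous from induced protein. The 3 libraries from wild-type C2C12 cells, without any tag, were not analysed here, and no signal from untagged cells stands beside any value.

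MyoD1 is a basic helix-loop-helix factor that drives skeletal muscle gene expression. It pairs with an E protein such as Tcf12 and contacts the E-box, CANNTG, with a preference for CAGCTG and a weaker one for CAGGTG. In muscle cells it is found both at promoters and at distal enhancers, and enhancers of myoblasts often also hold sites of AP-1, the Fos and Jun dimer, which reads TGANTCA.

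The 2 libraries numbered 3 stood apart from the others. Their lists reached down to a total signal of 354 (no dox) and 336 (+dox), whereas the other 4 lists ended between 837 and 904. Total signal is coverage in CPM, counts scaled to library size, summed over the peak. The +dox list of replicate 3 had 53661 peaks, against 9389 to 13877 in the other 5, and an estimated 8030000 alignments, against 2868000 to 4667000. Left out together, these 2 libraries gave 972 sites called only with dox. Leaving out +dox replicate 3 alone gave 724, and leaving out no dox replicate 2 gave 1434. When +dox replicate 3 was cut down to 9389 peaks by total signal, as many as the shortest list held, 76 of the 634 sites were left, while the mirrored count of regions called in all no dox lists and in no +dox list rose from 5 to 44. A single floor on total signal for all 6 lists gave 343 sites, 80.8% of which overlapped 1 of the 634, and a mirrored count of 12. With all 6 lists at the length of the shortest there were 61 such sites, 45.9% of which overlapped 1 of the 634, and 28 of the 634 (4.42%) were among them. The mirrored count was then 33, against those 61.

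The sequences below are 200-base windows centred on the mean position of the 3 +dox maxima, at the highest sites that have no annotated untranslated region in the window. They are shown because they hold the range of what lay under the strongest of these peaks. Letters are the plus strand of GRCm38 (mm10), E-boxes and TGANTCA sites are in capitals, and each window carries the name of the nearest protein-coding gene.

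Slc24a4, chr12:102190884-102191083, plus strand: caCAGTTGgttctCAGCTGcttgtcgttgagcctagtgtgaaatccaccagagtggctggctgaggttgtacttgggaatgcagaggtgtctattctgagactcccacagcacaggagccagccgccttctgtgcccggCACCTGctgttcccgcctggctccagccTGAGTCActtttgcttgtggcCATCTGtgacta
Lrtm2, chr6:119329376-119329575, plus strand: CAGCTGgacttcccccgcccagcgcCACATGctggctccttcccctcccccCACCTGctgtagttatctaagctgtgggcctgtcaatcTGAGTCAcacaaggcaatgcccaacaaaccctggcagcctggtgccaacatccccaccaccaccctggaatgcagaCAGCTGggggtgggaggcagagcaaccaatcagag
Ppp1r13l, chr7:19363976-19364175, plus strand: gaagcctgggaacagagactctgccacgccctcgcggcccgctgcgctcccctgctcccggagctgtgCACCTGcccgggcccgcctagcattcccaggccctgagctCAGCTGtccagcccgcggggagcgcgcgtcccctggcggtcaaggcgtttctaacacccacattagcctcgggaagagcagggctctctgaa
Actbl2, chr13:110907668-110907867, plus strand: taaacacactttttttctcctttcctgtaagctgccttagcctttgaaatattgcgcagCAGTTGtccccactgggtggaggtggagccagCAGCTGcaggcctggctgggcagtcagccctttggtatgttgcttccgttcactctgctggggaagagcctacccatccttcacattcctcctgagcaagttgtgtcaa
Usp46, chr5:73930343-73930542, plus strand: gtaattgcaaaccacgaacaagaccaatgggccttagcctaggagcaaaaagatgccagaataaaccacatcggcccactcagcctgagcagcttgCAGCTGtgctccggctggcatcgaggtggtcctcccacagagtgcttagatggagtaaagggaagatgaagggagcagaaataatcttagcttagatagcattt
Axin2, chr11:108980726-108980925, plus strand: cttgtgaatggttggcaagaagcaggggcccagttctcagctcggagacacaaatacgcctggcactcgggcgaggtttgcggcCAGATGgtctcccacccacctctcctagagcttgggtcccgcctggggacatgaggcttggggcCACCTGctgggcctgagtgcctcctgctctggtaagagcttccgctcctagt
Serpina12, chr12:104055876-104056075, plus strand: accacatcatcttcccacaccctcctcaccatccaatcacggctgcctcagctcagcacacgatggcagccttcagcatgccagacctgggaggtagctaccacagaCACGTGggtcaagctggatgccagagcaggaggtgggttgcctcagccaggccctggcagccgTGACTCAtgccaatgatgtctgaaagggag
Ccdc107, chr4:43492826-43493025, plus strand: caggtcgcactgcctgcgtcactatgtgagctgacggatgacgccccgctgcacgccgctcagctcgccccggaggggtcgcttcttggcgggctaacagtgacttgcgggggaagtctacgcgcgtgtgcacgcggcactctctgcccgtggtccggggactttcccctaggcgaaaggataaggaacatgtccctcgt
Gm379, chrX:108747676-108747875, plus strand: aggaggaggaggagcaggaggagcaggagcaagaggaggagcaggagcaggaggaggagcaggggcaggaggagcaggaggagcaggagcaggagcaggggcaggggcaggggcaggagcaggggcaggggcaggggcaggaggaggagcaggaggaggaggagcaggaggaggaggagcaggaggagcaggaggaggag

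The first 5 windows hold CAGCTG, 2 copies in that of Lrtm2 and 1 in each of the others. The windows of Slc24a4 and Lrtm2 also hold the AP-1 site TGAGTCA. That of Axin2 has no CAGCTG but has CACCTG, the other strand of CAGGTG, and CAGATG. The window of Serpina12 has CACGTG and the AP-1 site TGACTCA, that of Ccdc107 has no E-box, and that of Gm379 is a purine-rich repeat without an E-box.

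The 10 highest sites are given by the alignments stacked at the maximum of the called peak in +dox replicates 1, 2 and 3, the deposited maximum in CPM divided by what 1 alignment is worth in that library. The highest, ranked by mean height percentile within the 3 lists, lay in an intron of Slc24a4, a potassium-dependent sodium-calcium exchanger, at chr12:102190751-102191850, 61882 bp downstream of the nearest start site. It had 64, 52 and 62 alignments. The second, in a UTR of the serine protease gene Prss53 at chr7:127885651-127886400, had 52, 58 and 56. The third, at chr6:119328851-119329950, lay 197 bp upstream of a start of Lrtm2 and within an intron of Cacna2d4, a calcium channel subunit, and had 46, 52 and 58. In CPM these 3 sites reached 22.3, 14.5 and 7.72 (Slc24a4), 18.1, 16.1 and 6.97 (Prss53) and 16.0, 14.5 and 7.22 (Lrtm2), so they were level in alignments and lowest in replicate 3, the deepest library, once scaled to depth. Their maxima fell within 25 bp of each other.

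The next of these sites were less even in alignments. A site 37480 bp downstream of a start of Axin2, a Wnt target that restrains Wnt signalling, had 52, 52 and 42 alignments. Ccdc107 had a site 111 bp upstream of a start with 66, 48 and 32. The site upstream of Serpina12 had 40, 52 and 60, and that in an intron of Ppp1r13l, an inhibitor of p53, had 55, 54 and 26. The site nearest to Actbl2, in a non-coding gene 347287 bp away, had 50, 52 and 30. A site 98742 bp from Usp46, a deubiquitinase gene, had 64, 34 and 40, and the repeat in an intron of Brwd3, nearest to Gm379, had 58, 30 and 64. Alignments are not scaled to depth. In CPM, replicate 1 was the highest at 9 of the 10 sites, Serpina12 being the exception, and replicate 3 was the lowest at all 10.

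The lowest 5 sites lay near Ddn, Armc2, Dlx2, Camk1d and Gm47841. Gm47841, the lowest, reached 2.09, 2.22 and 0.996 CPM at its maximum in replicates 1, 2 and 3, and Camk1d, a calmodulin-dependent kinase gene, reached 2.79, 1.67 and 0.996.

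Most sites called only with dox were low peaks. Over all 634, the maximum had a median of 18 alignments in +dox replicate 1 (range 6 to 72), 18 in replicate 2 (6 to 64) and 20 in replicate 3 (6 to 175). The median height percentile within the list was 35.5, 31.9 and 68.0. In CPM the median maximum was 6.28, 5.00 and 2.49, lowest in replicate 3, whose list was the longest and ran furthest down. Regions called in all 6 lists had medians of 50, 54 and 88 alignments, and those called in exactly 1 no dox list 20, 20 and 24. The sites therefore sat just under the regions called once without dox, with interquartile ranges that overlapped in every library, and well under those called in every list. The lists end at a floor on total signal, which is summed from the same coverage as height, so these values are bound up with the rule and were not tested.

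**Figure D1:**
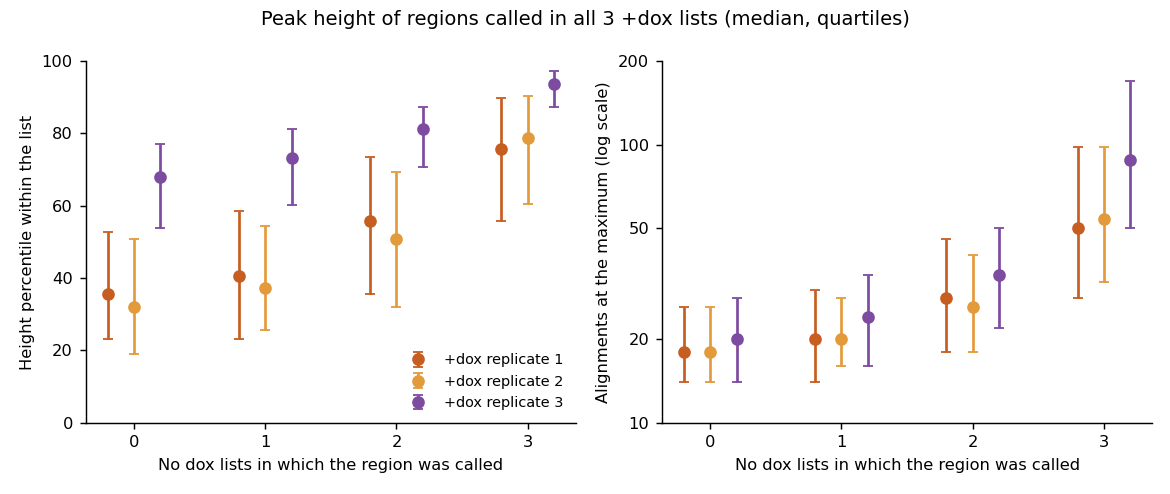
Peak height of the 8852 regions called in all 3 +dox lists, by the number of no dox lists (0 to 3, horizontal axis) in which they were called; the left panel gives the percentile of maximum signal within each +dox list and the right panel the alignments at the maximum on a log axis. Points are medians and bars quartiles; the sites called only with dox (0) have medians of 18, 18 and 20 alignments and the regions called in all 6 lists (3) 50, 54 and 88.

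The called peaks were also narrower than those at regions called in all 6 lists. Their median width was 450, 600 and 850 bp in +dox replicates 1, 2 and 3, against 700, 850 and 1550 bp there. Regions called in exactly 1 no dox list were closer, at 500, 600 and 1000 bp, with no difference in replicate 2. Median total signal at the sites was 1360, 1251 and 872, and the lists ended at 837, 904 and 336. At the edge of the call, the 10 sites with the lowest total signal in +dox replicate 1 were all at 837. In replicate 2 the 10 lowest were at 918, and in replicate 3 they lay between 336 and 361. Just outside the rule, 245 regions were called in no dox replicate 1 alone among the no dox lists, 803 in replicate 2 alone and 227 in replicate 3 alone, with median total signals there of 1070, 1287 and 1414. Of the 634 sites, 306 (48.3%) had a total signal in all 3 +dox lists above the highest of the no dox floors, which was 869. The remaining sites had a total at or under that floor in at least 1 +dox list. The lists hold nothing below their floors, so a site without a no dox call is not shown to be without signal there.

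The 3 +dox libraries mostly placed the peaks at the same positions. At 629 sites (99.2%) the 3 peaks shared bases, with a median of 350 bp in common, and at 387 (61.0%) the 3 maxima lay within 100 bp. That last share was 57.9%, 63.2% and 68.1% in regions called in 1, 2 and 3 no dox lists. The nearest no dox peak was a median of 19800 bp away. It lay within 1000 bp at 36 sites and within 10000 bp at 212, so most sites were not the shoulder of a peak called without dox. The site at Lrtm2, with a no dox peak 150 bp from it, was 1 of 8 with such a peak within 200 bp.

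Promoters made up the larger share of the sites. A region was called a promoter region when its centre lay within 1 kb of the start of a protein-coding transcript, and distal otherwise. By that measure 384 of the 634 sites were promoter sites (60.6%, Wilson 95% interval 56.7 to 64.3) and 250 were distal, of which 87 lay 1 to 10 kb, 111 lay 10 to 50 kb and 52 lay over 50 kb from a start. The promoter sites had a median distance of 77 bp to the start and the distal sites 17658 bp. By annotation at the centre, 214 sites were intronic, 171 intergenic, 155 in a UTR, 64 in a coding exon and 30 in a non-coding gene. Intervals of this kind cover counting error only.

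The promoter share was 68.7% in regions called in 1 no dox list, 71.1% in those called in 2 and 52.0% in those called in all 3, so the sites lay between. Taken over peaks within each +dox list, 60.6%, 60.6% and 61.0% of the peaks at the sites were promoter peaks in replicates 1, 2 and 3, against 58.4%, 58.1% and 58.2% of the peaks at the regions called in 1 or more no dox lists. The difference was 2.49 ± 0.264 percentage points (SD, n = 3 libraries) and had the same sign in 3 of 3. The sign-flip test, exact and two-sided, gave p = 0.25 over the libraries, which is the smallest that 3 libraries allow, and 0.25 after Benjamini-Hochberg adjustment over 5 tests. The 3 libraries share these regions, so they are not independent for features of position or sequence, here and in the other 4 tests. The sign did not hold against the regions called in exactly 1 no dox list (-7.68 points), nor in the mean when the comparison peaks were weighted to the height deciles of the sites (-3.81 ± 8.94 points), where the libraries ran from -12.5 to 5.36. Against regions called in all 6 lists it was 9.95 points, and against all other peaks of the list 16.3 ± 19.3.

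**Figure D2:**
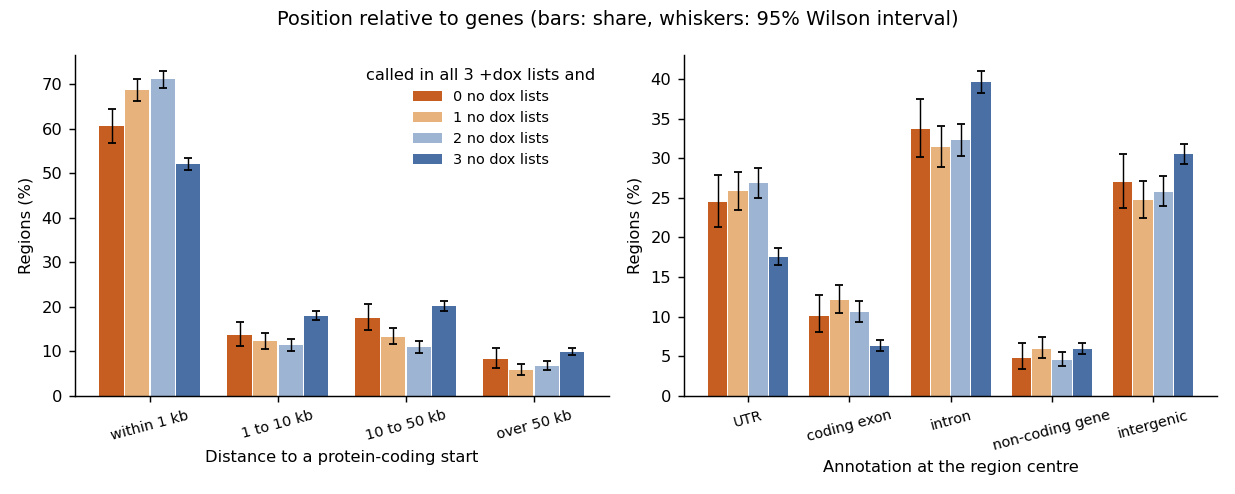
Distance to the nearest protein-coding start (left) and annotation at the region centre (right) of regions called in all 3 +dox lists, as the percent of regions by number of no dox lists with a call; bars start at 0 and whiskers are Wilson 95% intervals. Of the sites called only with dox (0 no dox lists), 60.6% lay within 1 kb of a start, between the 52.0% of regions called in all 6 lists and the 71.1% of those called in 2 no dox lists.

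The promoter sites had the composition of CpG-rich promoters. In the 200-base windows the median GC content was 68.0% and the ratio of observed to expected CpG 0.834, against 59.2% and 0.303 at distal sites. GGGCGG, the core of the GC box read by Sp factors, was in 260 of 384 promoter windows (67.7%) and in 61 of 250 distal windows (24.4%). CCGGAA, the core of sites read by Ets factors, was in 84 promoter windows (21.9%) and 13 distal ones (5.20%). In windows of the same length moved by 10 kb the shares over all sites were 3.79% for GGGCGG and 1.89% for CCGGAA. Moved windows were not matched for base content. Their median GC content was 46%, against 64% in the windows at the sites. Over all sites the 2 shares were 50.6% and 15.3%, and in regions called in exactly 1 no dox list 54.0% and 17.4%.

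GC content over whole peaks was close between the sites and their comparison. It had medians of 62.6%, 61.2% and 57.6% in the peaks at the sites in +dox replicates 1, 2 and 3, and of 61.5%, 60.2% and 56.7% in the peaks at regions called in 1 or more no dox lists. The difference was 0.962 ± 0.0707 percentage points (SD, n = 3), the same sign in 3 of 3 libraries, with an exact sign-flip p of 0.25 and an adjusted p of 0.25. It was -1.53 points against regions called in exactly 1 no dox list and -0.485 with height weighting, so its sign also rested on the comparison.

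Distal and promoter sites differed in what lay under the maximum. CAGCTG was in 137 of 250 distal windows (54.8%, Wilson 95% interval 48.6 to 60.9) and in 56 of 384 promoter windows (14.6%, 11.4 to 18.5). In windows moved by 10 kb, CAGCTG was in 12% at distal and 6.51% at promoter sites. Among distal sites, 30 windows held 2 or more CAGCTG, 69 held another E-box but no CAGCTG and 44 held no E-box. Promoter windows were without any E-box at 199 of 384 sites (51.8%), and a site of this kind is the one at Ccdc107 printed above. That share was 52.7%, 46.9% and 37.6% in promoter regions called in 1, 2 and 3 no dox lists. CANNTG as a whole was in 82.4% of distal windows and 65.6% of their moved windows, but in 48.2% of promoter windows and 70.1% of their moved windows.

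Within the distal windows CAGCTG gathered at the maximum. Its density was 4.48 per kb in both 50-bp bins next to the mean maximum and between 0.24 and 0.96 per kb beyond 200 bp. At promoter sites the density was 1.77 and 1.30 per kb in those bins, against 2.50 and 2.62 at promoter regions called in all 6 lists. At distal regions called in all 6 lists it was 4.96 and 5.13. The windows printed above for Actbl2 and Usp46 show the distal form, with 1 CAGCTG close to the middle of the window.

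**Figure D3:**
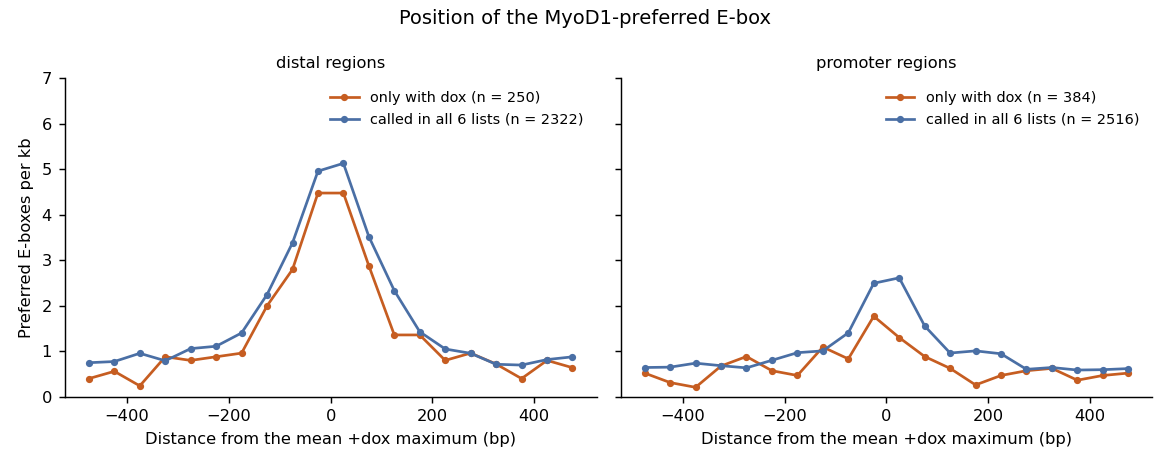
Density of CAGCTG (the MyoD1-preferred E-box, motifs per kb in 50-bp bins) against distance from the mean +dox maximum, for distal regions (left) and promoter regions (right) called only with dox or in all 6 lists. At distal sites called only with dox the density reached 4.48 per kb beside the maximum, and at promoter sites 1.77.

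Set beside the other regions, the sites had fewer CAGCTG over whole peaks. With peaks extended by 100 bp on each side, CAGCTG was in 47.7%, 52.1% and 55.9% of the peaks at the sites in +dox replicates 1, 2 and 3, and in 62.7%, 65.9% and 72.8% of the peaks at regions called in 1 or more no dox lists. The share was lower at the sites in each library. The difference was -15.2 ± 1.57 percentage points (SD, n = 3), lower in 3 of 3 libraries, with an exact sign-flip p of 0.25 and an adjusted p of 0.25. Peaks at the sites were shorter, as given above, and in windows of equal length at the maximum the difference was -9.31 points.

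The size of that difference depended on which regions stood opposite. Against regions called in exactly 1 no dox list it was 0.785 ± 1.98 points, and the 3 libraries lay between -1.46 and 2.27, so no difference was detectable there. Against regions called in all 6 lists it was -23.6 points. With comparison peaks weighted to the sites' heights and windows of equal length it was 1.62 ± 4.65 points. The split by position was chosen after seeing the data. With it, in windows of equal length, the difference was -1.29 ± 1.54 points among distal peaks and -13.3 ± 1.17 points among promoter peaks. At the level of regions, CAGCTG was in 54.8%, 47.9%, 46.6% and 59.7% of distal regions with 0, 1, 2 and 3 no dox calls, and in 14.6%, 18.3%, 20.5% and 32.1% of promoter regions. Distal sites called only with dox thus did not have the lowest share. Promoter sites did, although their interval overlapped that of promoter regions called once without dox (15.8% to 21%).

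CAGGTG, read on both strands, gave a difference whose sign turned with the window. Over extended peaks it was in 47.2%, 50.5% and 61.8% of the peaks at the sites and in 50.9%, 56.7% and 70.7% of the comparison peaks, a difference of -6.28 ± 2.62 points (SD, n = 3; 3 of 3 libraries lower, exact sign-flip p = 0.25, adjusted p = 0.25). In windows of equal length at the maximum it was 3.69 ± 0.316 points, higher in all 3 libraries. By region, 26.4% of distal sites had it (21.3 to 32.2), against 19.0%, 19.7% and 21.1% of distal regions with 1, 2 and 3 no dox calls, and 13.6% of the sites' own moved windows. At promoter sites the share was 17.2%, with 14.3% in the moved windows.

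AP-1 sites were more common at distal than at promoter sites. TGANTCA, which is its own reverse complement, was in 43 of 250 distal windows (17.2%, 13.0 to 22.4) and in 6.80% of their moved windows. Distal regions with 1, 2 and 3 no dox calls had it in 21.3%, 19.7% and 22.4%. At promoter sites it was in 13 of 384 windows (3.39%) and in as many moved windows. Both CAGCTG and TGANTCA were in 17 distal windows (6.80%, 4.29 to 10.6). Distal regions with 1, 2 and 3 no dox calls had both in 10.3% (7.67 to 13.6), 9.52% (7.44 to 12.1) and 13.6%. Over extended peaks TGANTCA was in 18.8%, 21.4% and 26.6% of the peaks at the sites and in 27.2%, 30.4% and 39.1% of the comparison peaks, a difference of -9.98 ± 2.18 points (SD, n = 3; 3 of 3 lower, exact sign-flip p = 0.25, adjusted p = 0.25). The difference was -2.70 points in windows of equal length, -5.03 ± 0.252 points among distal peaks in such windows, a split chosen after seeing the data (lower in 3 of 3 libraries), and -0.559 ± 1.69 points against regions called in exactly 1 no dox list.

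**Figure D4:**
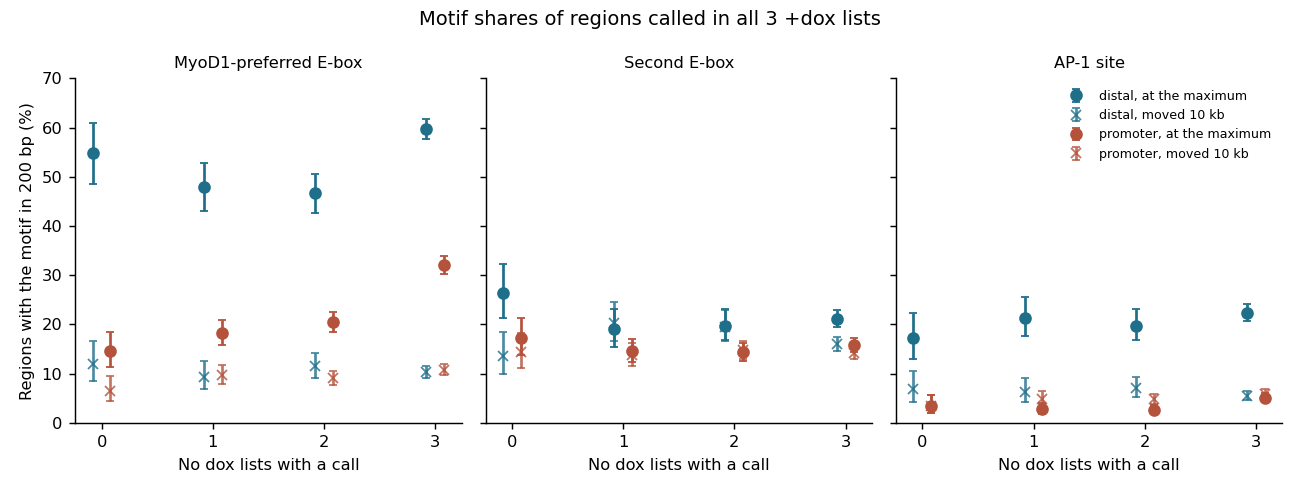
Percent of regions called in all 3 +dox lists that hold CAGCTG (left, the MyoD1-preferred E-box), CAGGTG (middle, second E-box) or TGANTCA (right, AP-1 site) in 200 bp at the maximum (filled circles) or in the same window moved by 10 kb (crosses), by number of no dox lists with a call; whiskers are Wilson 95% intervals. Distal sites called only with dox (0) had CAGCTG in 54.8% and promoter sites in 14.6%, against 12% and 6.51% in moved windows.

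Of the remaining motifs searched, most were at or under their level in moved windows over all sites. The moved windows were lower in GC content, as given above, so these gaps do not separate motif from base content. The MEF2 motif was in 8 of 634 windows (1.26%) and in 4.10% of moved windows. GGAATG, read by Tead factors, was in 7.26% and in 9.31% of moved windows, and TGTGGT, read by Runx factors, was in 12% and 15.8%. Split by position, TGTGGT was in 18.4% of distal windows and 13.2% of their moved windows, and in 7.81% of promoter windows and 17.4% of theirs. CCAAT was in 21% and 23.5%, and CATATG in 0.789% and 5.36%. The other 2 were above it. The cyclic AMP response element TGACGTCA was in 13 windows (2.05%), 10 of them at promoters, and in 0.158% of moved windows. CACGTG, the E-box of Myc and Usf, was in 6.31% and in 3.00% of moved windows. Regions called in exactly 1 no dox list had TGACGTCA in 2.20% and CACGTG in 6.90%.

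Mean height moved with position and motif among the sites, though the order by position did not hold in every library. The median of the mean height percentile was 53.4 for the 137 distal sites with CAGCTG, 47.4 for the 113 distal sites without it, 44.7 for the 56 promoter sites with it and 41.4 for the 328 promoter sites without it. In +dox replicate 2 the same 4 medians were 42.4, 37.4, 31.9 and 25.7, and in replicate 3 they were 78.5, 73.2, 64.6 and 60.2. In replicate 1 they were 45.3, 35.5, 38.0 and 35.5. There, distal sites without CAGCTG were level with promoter sites without it and under promoter sites with it. These are descriptions of chosen peaks, with no test.

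The 634 sites had 621 nearest protein-coding genes, 2.86% of the 21728 annotated, and 608 of them had 1 site. The other regions called in all 3 +dox lists were nearest to 5987 genes (27.6%). A nearest gene is a matter of distance, and the peak lists do not say whether MyoD1 acts on it. The genes with 2 sites were Amotl2, Srcin1, Cpa4, Sh3kbp1, Gse1, Myocd, Ccdc88c, Usp46, Zfp292, Tnfaip8l1, Copg1, Tbc1d2 and Runx1. Only 4 pairs of sites lay within 10 kb of each other, at Tnfaip8l1, at Zfp292, between Dlx1 and Dlx2, and between Slc39a1 and Crtc2.

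Of 22 myogenic regulators, 3 were nearest to a site (13.6%, beside 2.86% of all genes) and 14 to another region called in all 3 +dox lists (63.6%, beside 27.6% of all genes). Runx1, a Runt factor active in muscle, had an intronic site 37202 bp from a start with 24, 28 and 52 alignments in +dox replicates 1, 2 and 3 and a CAGCTG in its window. It had a second intronic site, with 26, 12 and 28 and no CAGCTG. In CPM the first reached 8.37, 7.79 and 6.48 and the second 9.07, 3.34 and 3.49, so replicate 1 was the highest at both.

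Myocd, the cardiac and smooth muscle cofactor of Srf, had a site 206087 bp upstream with 38, 30 and 12 alignments and another 562 bp upstream with 10, 20 and 26. In CPM these were 13.2, 8.34 and 1.49 at the first and 3.49, 5.56 and 3.24 at the second, so replicate 3 was the lowest at both. At the second the maxima lay up to 950 bp apart, so the libraries did not peak at 1 position there. Mef2c, a MADS-box partner of MyoD1, had a site in a non-coding gene 77638 bp away with 24, 16 and 16 alignments.

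Structural and signalling genes of muscle gave single sites. Of 22 Id, E protein and E-box repressor genes, only Tcf12, the E protein HEB, was nearest to a site. That site lay 25 bp from a start with 18, 14 and 12 alignments and held 2 CAGCTG in its window. Among sarcomere genes, Tmod1, a thin filament capping protein, was nearest to a site. Of 24 fusion genes it was the tetraspanin Cd81, of 15 neuromuscular junction genes it was Agrn, whose product agrin clusters acetylcholine receptors, and of 20 dystrophin complex and intermediate filament genes it was Plec. None of 24 excitation-contraction coupling genes was nearest to a site. Of these, 14 were nearest to another region called in all 3 +dox lists (58.3%, beside 27.6% of all genes). The lists with 1 such gene had shares of 4.17% to 6.67%, beside 2.86% of all genes, and in lists this short counts of 0 and 1 are both near that background. Alignments at the maxima of Tmod1, Cd81, Agrn and Plec ranged from 8 to 22, so these were low peaks. The sites at Cd81 and Agrn also lay only 100 and 150 bp from a peak called without dox.

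The TGF-beta, Wnt and Notch lists held 10 genes nearest to a site. Of 46 TGF-beta and BMP genes, 5 were nearest to a site (10.9%). They were Smad6 and Smad7, which encode inhibitory Smads, Smurf2, a ubiquitin ligase, Ski, a corepressor of Smads, and Ltbp2, a latent TGF-beta binding protein relative. The distal site near Smad6 had 38, 22 and 22 alignments and an AP-1 site, and that near Smad7, in an intron of Ctif, had 30, 28 and 22 and a CAGCTG. The sites at the starts of Smurf2 (28, 10 and 22) and Ski (14, 14 and 18) had neither. Of 32 Wnt genes, Axin2, Dvl2 and Dvl3 were nearest to a site (9.38%). The last 2 had promoter sites of 14 to 20 alignments, and at Dvl3 the maxima lay up to 1125 bp apart. Of 24 Notch genes, Notch1 and the ligand gene Dll4 were nearest to a site. Notch1 had an intronic site of 18, 36 and 38 alignments, and Dll4 had a site 9263 bp away of 18, 10 and 12. These lists are small, and the shares are given beside the 2.86% of all genes with no test. The other regions called in all 3 +dox lists were nearest to 27 of the 46, 16 of the 32 and 14 of the 24. These shares were 58.7%, 50% and 58.3%, beside 27.6% of all genes.

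**Figure D5:**
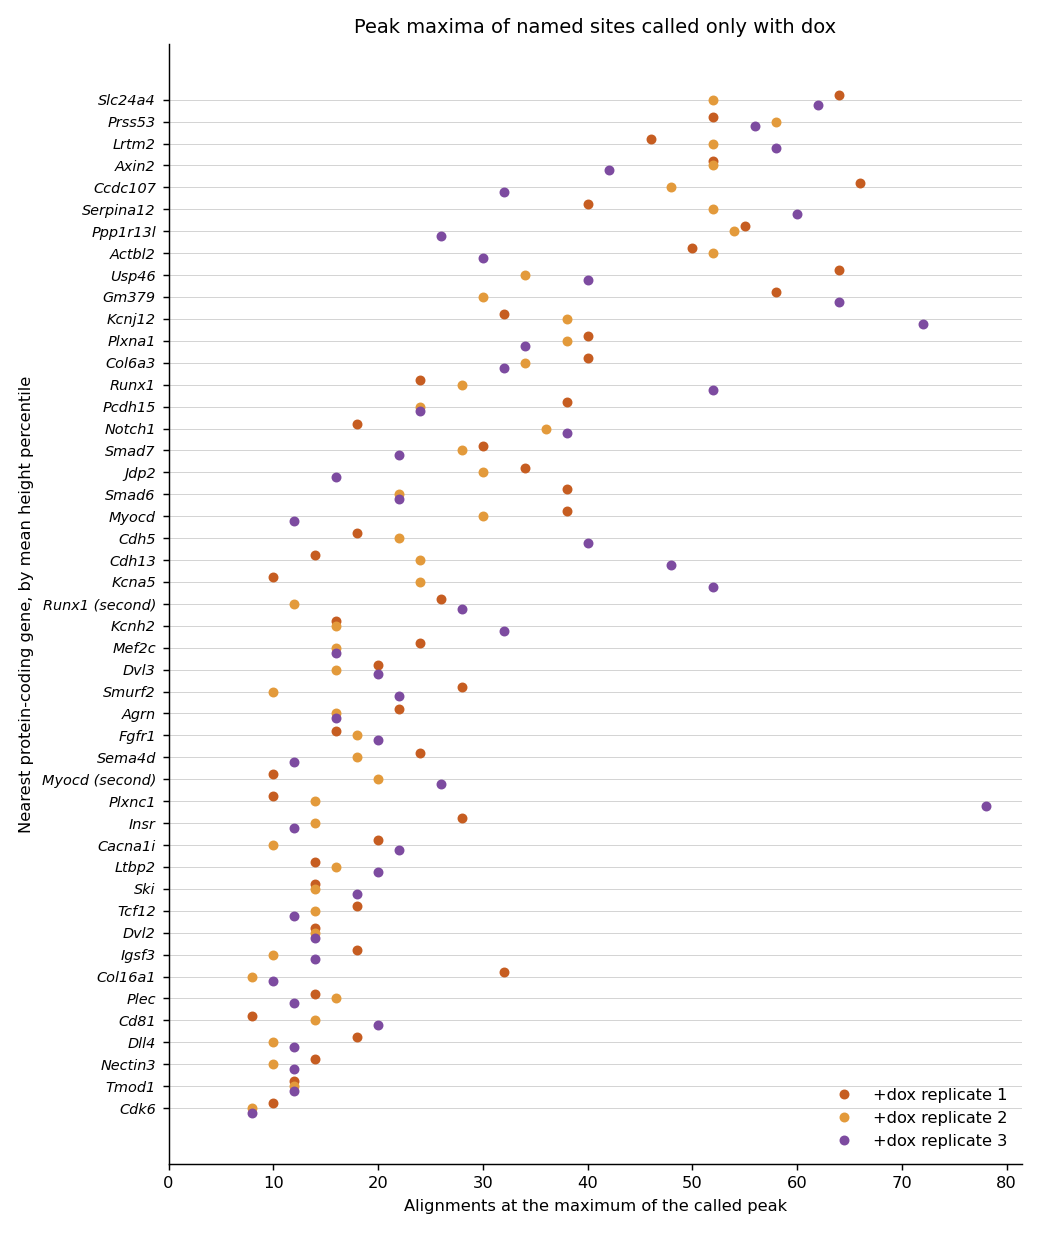
Alignments at the maximum of the called peak (horizontal axis) in each of the 3 +dox libraries for the 10 highest sites and for sites nearest to genes of the muscle, signalling, adhesion, matrix and channel lists, ordered by mean height percentile. Values run from 8 at Cdk6 to 78 at Plxnc1, where replicates 1 and 2 had 10 and 14.

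The growth factor, AP-1 factor and cell cycle lists had 1 gene each nearest to a site, shares of 3.70% to 5.00% beside 2.86% of all genes. These were Fgfr1 of 27 FGF and receptor feedback genes (16, 18 and 20 alignments, 791 bp upstream of a start, with CAGCTG), Insr of 21 IGF axis genes (28, 14 and 12), Jdp2 of 20 AP-1 factor genes (34, 30 and 16 at its start) and Cdk6 of 24 cell cycle exit genes (10, 8 and 8). Fgfr2 was not nearest to a site, but its annotated interval held 3 sites. These lay far apart, at chr7:130855601-130856350, chr7:130982251-130982900 and chr7:132841201-132841750, and were assigned to Plekha1, Htra1 and Eef1akmt2. That interval also runs over Htra1 and Eef1akmt2, and the Htra1 site lay 154 bp upstream of a start of Htra1. The 3 are therefore not a group of sites at Fgfr2. That assigned to Eef1akmt2 was the strongest, with 24, 64 and 64 alignments and an AP-1 site but no CAGCTG. Fgfr2 and Cdh23 are named after their values were seen.

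Cadherin genes were nearest to sites about as often as all genes. Of 112 cadherin superfamily genes, 3 were nearest to a site (2.68%), and all 3 were distal with CAGCTG in the window. Pcdh15 had 38, 24 and 24 alignments, Cdh5, the endothelial cadherin, had 18, 22 and 40 at a site 351099 bp upstream, and Cdh13 had 14, 24 and 48 at a site 121432 bp upstream. Cdh23, a tip-link cadherin, was not nearest to a site, but its annotated interval held an intronic site at chr10:60400301-60401000. That site lay 106 bp upstream of a start of Gm17455, so it was assigned to Gm17455 and counted as a promoter site. It had 26, 30 and 34 alignments and 2 CAGCTG in the window. Of 34 immunoglobulin-type adhesion genes these were Igsf3 and Nectin3 (5.88%), both at a start with 10 to 18 alignments. None of 26 integrin genes was nearest to a site, a count near the 2.86% of all genes in a list this short. Another region called in all 3 +dox lists was nearest to 11 of them (42.3%, beside 27.6% of all genes). Of 71 semaphorin, ephrin and slit guidance genes, Plxna1, Plxnc1 and Sema4d were (4.23%), and at Plxnc1 1 library carried the height, with 10, 14 and 78 alignments.

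Matrix, channel and housekeeping lists gave few sites as well. Of 67 collagen and laminin genes, Col6a3 (40, 34 and 32 alignments, 23105 bp upstream) and Col16a1 (32, 8 and 10) were nearest to a site (2.99%). Of 94 potassium channel genes these were Kcnj12, Kcna5 and Kcnh2 (3.19%), and of 26 calcium channel genes Cacna1i. Kcnj12, an inward rectifier of muscle, had 32, 38 and 72 alignments, but its maxima lay up to 925 bp apart, so the libraries did not peak at 1 position there. Solute carriers had 10 of 342 (2.92%), led by Slc24a4, Slc25a12, Slc43a2, Slc4a3 and Slc45a1, and Zfp genes 9 of 394 (2.28%), led by Zfp143, Zfp46, Zfp617, Zfp346 and Zfp382. Nuclear oxidative phosphorylation had 1 of 93, Cox7a2, and ribosomal proteins 6 of 170 (3.53%), led by Mrps18a, Rps14, Mrpl23, Rplp1 and Rps20. Apart from that of oxidative phosphorylation (1.08%), these shares lay near the 2.86% of all genes.

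The sites with the most CAGCTG held it in arrays. The 5 highest counts in regions extended by 100 bp were 25 at a site near Eif3c, 16 at Gm11568, 15 at Gm7579, 14 at Krtap4-13 and 10 at Gm18596. The last 4 lay in coding exons within 1 kb of a start. Krtap4-13 encodes a keratin-associated protein, 1 of a family of similar copies, so alignments there could come from another copy and that site is uncertain. Copies of the other array sites were not looked for, so they may be uncertain too. Their maxima were ordinary, at 24, 32 and 26 alignments for Eif3c and 22, 30 and 16 for Gm11568.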

How the data were processed

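CUT and RUN was carried out on 6 libraries of the tagged C2C12 clone (3 no dox, 3 +dox), grouped by their labels. The authors processed reads with nf-core/cutandrun 3.2.2 on mm10 with blacklist filtering, scaled coverage to CPM and ran SEACR (relaxed setting) separately for each library; control and numeric threshold were not given in the sources used here. The deposited lists hold, per peak, total and maximum signal in CPM coverage, with no spike-in scale.

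Here, overlapping or touching peaks of the 20 chromosomes analysed were merged. Depth was estimated as the inverse of the smallest step of the maximum signal, which gave whole alignments (within 2% of a step) for 100% of peaks. Whether 1 alignment is a read or a fragment is not known. Reads were paired-end, and the medians and quartiles of alignments at the maximum were even numbers in all 3 +dox libraries. A fragment may therefore count as 2 alignments, which was not tested. Motifs were counted on both strands of GRCm38 in peaks extended by 100 bp and in 200-bp windows at the maximum; moved windows lay 10 kb away. Start sites came from GENCODE M21. Shares and medians were compared within each +dox list between peaks at the sites and at other regions called in all 3 +dox lists (exact two-sided sign-flip test over libraries; Benjamini-Hochberg adjustment over 5 tests). The replicates are labelled biological. No test set +dox against no dox libraries.

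The members and the 25 gene lists were chosen with earlier results of these data known, and the ribosomal list was corrected after its genes were seen (Rps6k kinases were removed). The genes named are those of the 10 highest and 5 lowest sites by mean height percentile, list genes nearest to a site (5 a list at most), genes with 2 sites, the 5 sites with most CAGCTG and pairs within 10 kb; other names are marked as chosen later, and 1 result that the rule names is not reported here. The work was done in Python 3.11.15 with SciPy 1.17.1, NumPy 2.4.6, pandas 2.3.3 and matplotlib 3.10.9, and was tested on simulated lists and sequences.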

Additional observations from a re-analysis of the deposited data

How the results depend on the processing

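Leaving out 1 library at a time, the number of sites called only with dox ranged from 724 (without +dox replicate 3) to 1574 (without +dox replicate 1), with 1434 without no dox replicate 2 and 1474 without +dox replicate 2. Without both libraries numbered 3, an alternative chosen after seeing the data, it was 972. It was 61 with every list at the length of the shortest, 76 with +dox replicate 3 alone shortened to it and 343 with 1 floor on total signal. Joining peaks only on overlap, joining across 200 bp, requiring shared bases, keeping 1 kb from no dox peaks and reducing peaks to their maxima gave between 598 and 655.

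The composition differences kept their direction in each set of 2 +dox libraries. That outcome was fixed beforehand, because each main difference had the same sign in all 3. Against regions called in exactly 1 no dox list, CAGCTG became 0.785, CAGGTG 0.504, the promoter share -7.68 and GC content -1.53 percentage points. With comparison peaks weighted to the sites' height deciles, the promoter share became -3.81 and GC content -0.485 points, and with equal windows at the maximum added, CAGCTG became 1.62, CAGGTG 4.89 and AP-1 0.251 points. CAGGTG was also positive in equal windows (3.69), with moved windows subtracted (4.72) and, chosen after seeing the data, in distal (6.23) and promoter peaks (2.23). The cause of these changes was not tested. Of 77 alternative values, 57 kept direction or size, a count that includes the sets of 2 +dox libraries whose direction was fixed. With 3 libraries no p can fall under 0.25, and with 2 none under 0.5.

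No paired analysis was possible because the only comparison of +dox with no dox libraries is a count of calls with no test; the 5 tests take differences within each +dox library, so replicate numbers do not enter them. Sites carried a median of 18 to 20 alignments at the maximum, so counting error limits each single site.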
